A study of Ovis aries with 19 samples.

Results

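The genes that make cholesterol, take it up, store it and set its supply through the transcription factor SREBP2 were followed in liver and muscle of female sheep. They were taken by gene name, and kept where the mean normalized read count was at least 10 in liver or muscle. Of 29 listed names, 27 were found as names among 28524 gene identifiers, and all 27 passed that limit. IDI1, isopentenyl diphosphate isomerase, was found through its gene number as LOC101108851 and is given beside the 27 without being counted. CYP51A1 was not matched.

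The study compared control sheep with sheep labelled prenatal T-treatment, which the series title describes as an excess of testosterone before birth. Liver libraries came from control sheep 98, 131, 179 and 201 and from treated sheep 48, 63, 185, 233 and 255. Muscle libraries came from the same 9 animals and from control sheep 132. All animals were female, each library was 1 animal, and the dose, the time of treatment, the age at sampling and the muscle sampled are not given in the sources used here. Total RNA of the whole tissue was sequenced, so fewer cells of a type and less RNA per cell cannot be told apart.

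Cholesterol is built from acetyl-CoA through mevalonate to farnesyl diphosphate, then through squalene to lanosterol, and from lanosterol by a series of demethylations, reductions and isomerisations. SREBP2, the product of SREBF2, is held in the endoplasmic reticulum with its escort SCAP by the INSIG proteins when sterols are plentiful. When sterols are scarce, SCAP carries it to the Golgi, where it is cut, and the released part switches on most genes of synthesis and uptake. The liver makes cholesterol for export in lipoproteins and bile, while muscle makes it mainly for its own membranes and for the isoprenoids that branch off the same pathway.

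The liver libraries held 10236610 to 16046301 counted reads, the muscle libraries 8455563 to 14331578. The albumin gene ALB had a normalized count of at least 112956 in each liver and at most 16.2 in muscle. ACTA1, skeletal muscle actin, had at least 154279 in each muscle and at most 9.12 in liver. A first principal component over all tested genes held 41.0% of the variance in liver and 19.5% in muscle. On that component the liver groups overlapped, with control sheep from -49.6 to 62.0 and treated sheep from -69.6 to 74.0. The sign of a component is arbitrary, and here it was set so that SREBF2 correlated below 0 with it.

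The place of each gene was read from the 4 control sheep that had both tissues, after scaling their libraries together. Most of the synthesis pathway was higher in liver, and the largest ratio among the synthesis enzymes was that of ACAT2, the thiolase that joins acetyl-CoA units. Of the 27 genes, 20 were higher in liver and 3 were higher in muscle at a limma adjusted p under 0.05 (Benjamini-Hochberg). The 20 include SQLE and SOAT2, which were kept through liver alone, with mean normalized counts of 9.66 and 0.879 in muscle. Their direction between tissues therefore followed from the rule that kept them, and only its size is described. Over all 14921 genes tested, 35.5% were higher in liver and 31.0% were higher in muscle. The median log2 difference of the 27 genes was 2.10, liver over muscle.

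ACAT2 had a rescaled count of 4497, 4261, 6516 and 4174 in the livers of sheep 98, 131, 179 and 201, and of 33.5, 29.4, 55.1 and 53.9 in their muscles. Its liver mean was 113 times the muscle mean, with a log2 difference of 6.82 ± 0.26 (SE, n = 4 sheep) and a limma adjusted p of 2.86e-10. No liver value came near a muscle value. SQLE, squalene epoxidase, the first oxygen-using step and a point of control, had 458, 650, 1147 and 279 in the livers against at most 12.2 in each of the muscles, a ratio of means of 73.2. MSMO1, which takes methyl groups off the sterol ring, stood at 44.8 times its muscle mean. The sterol isomerase EBP, the dehydrogenase NSDHL, the desaturase SC5D and the cyclase LSS followed, with log2 differences of 4.20, 4.05, 3.58 and 3.42. MVK, PMVK and DHCR7, the kinases of mevalonate and phosphomevalonate and the reductase of the last step, had smaller ratios of 5.18, 5.39 and 6.17. HMGCS1, which makes the HMG-CoA that enters the pathway, had 2.95, and HSD17B7, a sterol ketoreductase, 3.33.

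SOAT2, which esterifies cholesterol in hepatocytes and intestine and has also been called ACAT2 in older usage, was nearly confined to liver in these libraries. Its reads numbered 8270 in the 4 control livers and 2 in the 4 control muscles, which after scaling is a ratio of 3644, and its exact 95% interval from 1008 to 30094 covers counting error only. The related SOAT1, the form of most other cells, was 4.65 times higher in liver. The sterol sensors INSIG1 and INSIG2 had log2 differences of 3.36 and 2.17 in favor of liver. NPC2, a lysosomal sterol carrier, was 3.85 times higher in liver, SREBF2 2.48 times, the cytosolic carrier STARD4 2.13 times and MVD, mevalonate diphosphate decarboxylase, 1.61 times. IDI1 was 8.86 times higher in liver.

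Against this pattern, FDFT1, squalene synthase, the enzyme that commits farnesyl diphosphate to sterols, was higher in muscle. Its rescaled counts were 1069, 1144, 1064 and 1097 in the livers of sheep 98, 131, 179 and 201, and 3274, 2265, 2776 and 4231 in their muscles. Every muscle value lay above every liver value, a ratio of means of 2.87 and a log2 difference of -1.48 ± 0.21 (SE, n = 4 sheep), with a limma adjusted p of 6.22e-05. The enzyme before it, FDPS, which makes farnesyl diphosphate, had a log2 difference of 0.20, with a 95% interval of -0.32 to 0.71. The direction of SQLE, the enzyme after it, followed from the rule that kept it and is not set against that of FDFT1. NPC1, which moves cholesterol out of lysosomes together with NPC2, was 6.07 times higher in muscle, with 103, 77.4, 64.6 and 96.4 in the livers and 440, 238, 322 and 1073 in the muscles. Its partner NPC2 was higher in liver, so the pair had opposite tissue directions, at log2 differences of -2.36 ± 0.40 (SE) and 1.92 ± 0.20 (SE) and limma adjusted p-values of 0.000208 and 3.62e-06.

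MYLIP, the ubiquitin ligase that marks lipoprotein receptors for destruction, was 2.27 times higher in muscle with a limma adjusted p of 0.0381. That call was lost without control sheep 98, 179 or 201, at limma adjusted p-values of 0.0885, 0.0844 and 0.134. FDPS, TM7SF2, LBR and SCAP passed the threshold in neither direction. TM7SF2 and LBR both encode sterol C14 reductases, and their log2 differences were 0.30 (95% interval -0.38 to 0.99) and 0.63 (-0.03 to 1.29). LBR passed without sheep 98, with a limma adjusted p of 0.0499, and MVD did not pass without sheep 131, at 0.131.

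The 5 treated sheep, which shared no animal with the controls, had the same order of tissues for 24 of the 27 genes. The 24 include SQLE and SOAT2, whose direction followed from the rule that kept them in these sheep too. In the treated sheep NPC1 had a log2 difference of -2.79, ACAT2 of 7.21 and MSMO1 of 5.39. The exceptions were MVD, FDPS and MYLIP, at -0.12, -0.17 and 0.01. SREBF2 was at 0.42 with a limma adjusted p of 0.100, against 1.21 in the controls with 0.00247. SCAP, at -1.02 with a limma adjusted p of 0.0117, and LBR, at 0.87 with 0.00479, passed in the treated sheep only, and whether those contrasts differ between the groups is tested below.

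**Figure D1:**
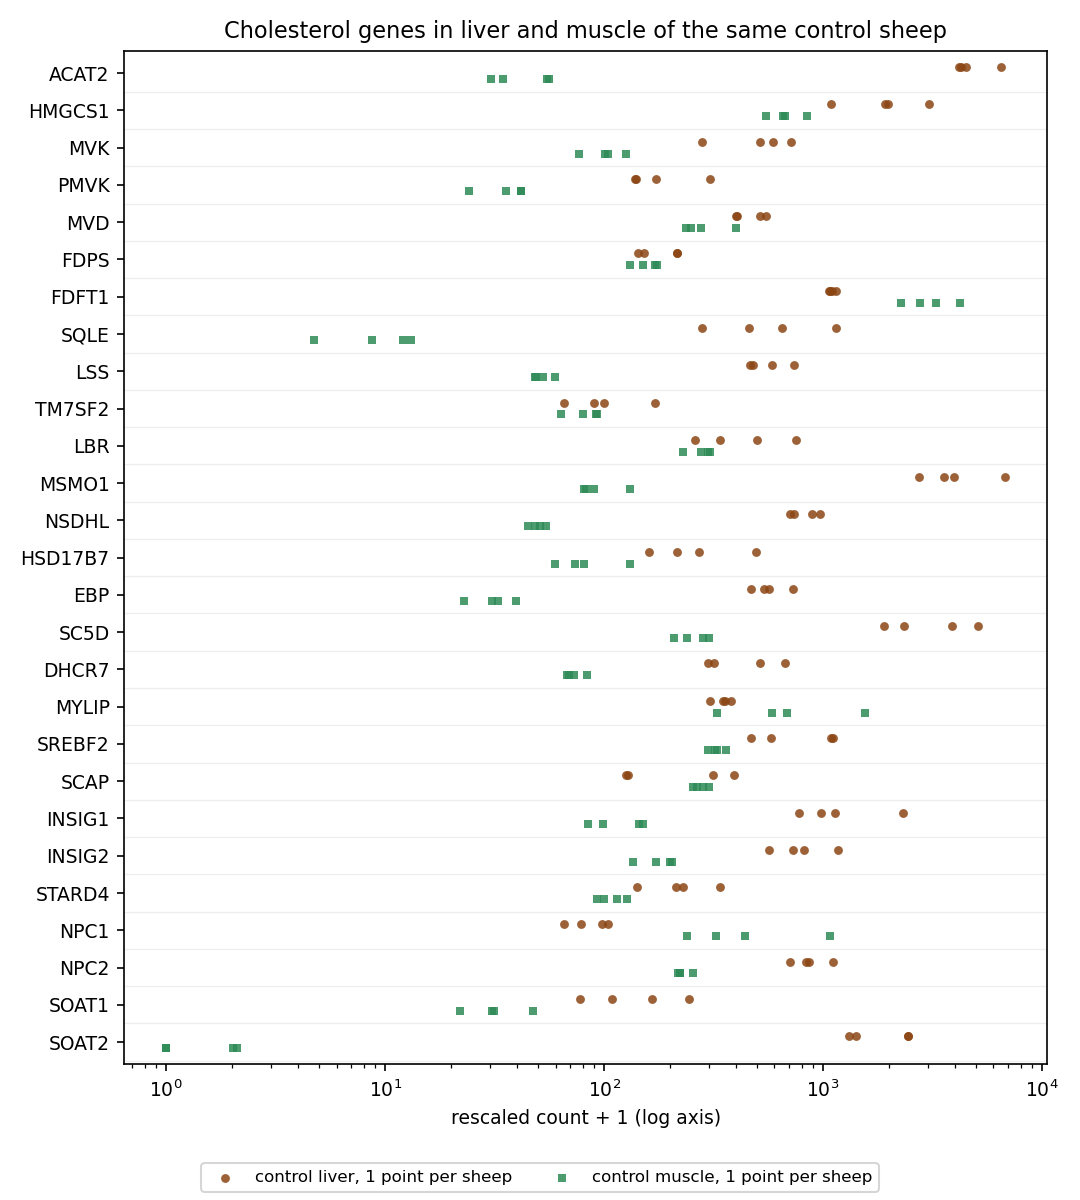
Rescaled read count plus 1 of each gene on a log axis, in pathway order from top to bottom, for liver (circles) and muscle (squares) of the 4 control sheep with both tissues, 1 point per sheep. ACAT2, SQLE, MSMO1 and SOAT2 lie far to the right in liver, while FDFT1 and NPC1 lie to the right in muscle; counts of different genes are not per length and cannot be ranked against each other.

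In liver, the treated group had lower means for the middle of the pathway, from MVK to LSS with the exception of PMVK, and for the last reductase DHCR7, SREBF2 and SOAT2, and a higher mean for MYLIP. None of these differences passed the threshold over all genes. Of 13640 genes tested in liver, 1 gene, LOC114112267, passed at a limma adjusted p under 0.05, which is 0.00733%, and 0 of the 27 cholesterol genes did. Their limma adjusted p-values were 0.910 or more, and edgeR and DESeq2 on the recovered reads called 0 of them too. At an unadjusted limma p under 0.05, 6 of the 27 were lower in treated liver, against 2.17% of all genes, and 1 was higher, against 1.82%. Without control sheep 98 the 6 became 2, and with any other library left out there were 5 to 7. The median log2 difference, treated minus control, was -0.29 over the 27 genes, with 15 below 0, and 0.003 over all genes, with 49.6% below 0. The median of the 27 was -0.14 without treated sheep 185, -0.16 without control sheep 179 and -0.14 with array weights.

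The ranges of the groups did not overlap for 3 of the 27 genes, FDFT1, LSS and DHCR7, all lower in treated liver, against 0.682% of all genes. In the other direction 0 of the 27 were free of overlap, against 0.858%.

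DHCR7, 7-dehydrocholesterol reductase, turns the precursor of vitamin D into cholesterol. Its normalized count was 590, 271, 479 and 284 in control livers 98, 131, 179 and 201, and 211, 229, 138, 63.2 and 247 in treated livers 48, 63, 185, 233 and 255. Each treated liver lay under the lowest control, with sheep 233 the lowest by a wide margin. The means were 406 ± 155 (SD, n = 4) and 178 ± 76.3 (SD, n = 5), a ratio of 0.438 and a log2 difference of -1.26 ± 0.41 (SE), with an unadjusted p of 0.00943 and an adjusted p of 0.910 by limma.

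At the entry to the pathway, ACAT2 and HMGCS1 stood on opposite sides. HMGCS1 had 1761, 1744, 2844 and 976 in the controls and 1572, 1166, 988, 769 and 1948 in the treated sheep, in the order given above. The ranges overlapped widely, and the log2 difference was -0.48 ± 0.34 (SE). ACAT2 had 3985, 3894, 6103 and 3759 against 6765, 4562, 3267, 6118 and 7873. Here 3 treated livers were above the highest control and 1 was below the lowest, with a log2 difference of 0.33 and a 95% interval of -0.31 to 0.97.

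MVK, mevalonate kinase, had 630, 538, 260 and 464 in control livers and 269, 363, 262, 147 and 222 in treated livers. Control sheep 179 had the level of the treated animals, so the ranges overlapped. Its means were 473 ± 157 (SD, n = 4) and 252 ± 78.5 (SD, n = 5), with a log2 difference of -0.89 ± 0.32 (SE), for which limma gave an unadjusted p of 0.0162 and an adjusted p of 0.999. MVD, which makes isopentenyl diphosphate, had 455, 501, 375 and 364 against 248, 357, 182, 415 and 232. Treated sheep 233 was among the controls and the other 4 treated livers were below the lowest control. The log2 difference was -0.61 ± 0.27 (SE). PMVK, the kinase between them, had its mean on the other side, at 170 in control and 214 in treated liver, with overlapping ranges. FDPS had 189, 138, 200 and 128 against 134, 161, 106, 89.9 and 94.3, with 3 treated livers under the lowest control and a log2 difference of -0.49 ± 0.26 (SE). IDI1 had a log2 difference of -0.37, with a 95% interval of -1.30 to 0.57.

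The squalene steps were all lower on average in treated liver. FDFT1 had 947, 1046, 997 and 988 in control livers and 846, 788, 577, 453 and 904 in treated livers. The controls lay close together, and each of the treated livers was below them. The means were 995 ± 40.5 (SD, n = 4) and 713 ± 191 (SD, n = 5), with a log2 difference of -0.52 ± 0.24 (SE) and an unadjusted limma p of 0.0515. SQLE had 406, 594, 1074 and 252 against 386, 313, 156, 256 and 391, overlapping because control sheep 201 was low. LSS, lanosterol synthase, which closes the sterol rings, had 650, 534, 432 and 431 against 371, 280, 317, 238 and 418. The highest treated liver was just under the lowest control, and the log2 difference was -0.66 ± 0.24 (SE) with an unadjusted p of 0.0177 and an adjusted p of 0.999 by limma.

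Between lanosterol and the last reductase the direction was mixed: 4 of 8 enzymes had a lower and 4 a higher mean log2 level in treated liver, and DHCR7 was the only one with an unadjusted limma p under 0.05. MSMO1 ranged from 2436 to 6350 in control livers and from 1409 to 7760 in treated livers, and the treated range enclosed the control range. NSDHL, EBP and SC5D had log2 differences of -0.29, -0.29 and -0.21, and HSD17B7 and LBR of 0.10 and 0.23, each with a 95% interval that included 0. TM7SF2 ranged from 30.9 in sheep 185 to 246 in sheep 233, both of them treated, and this range enclosed all controls.

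**Figure D2:**
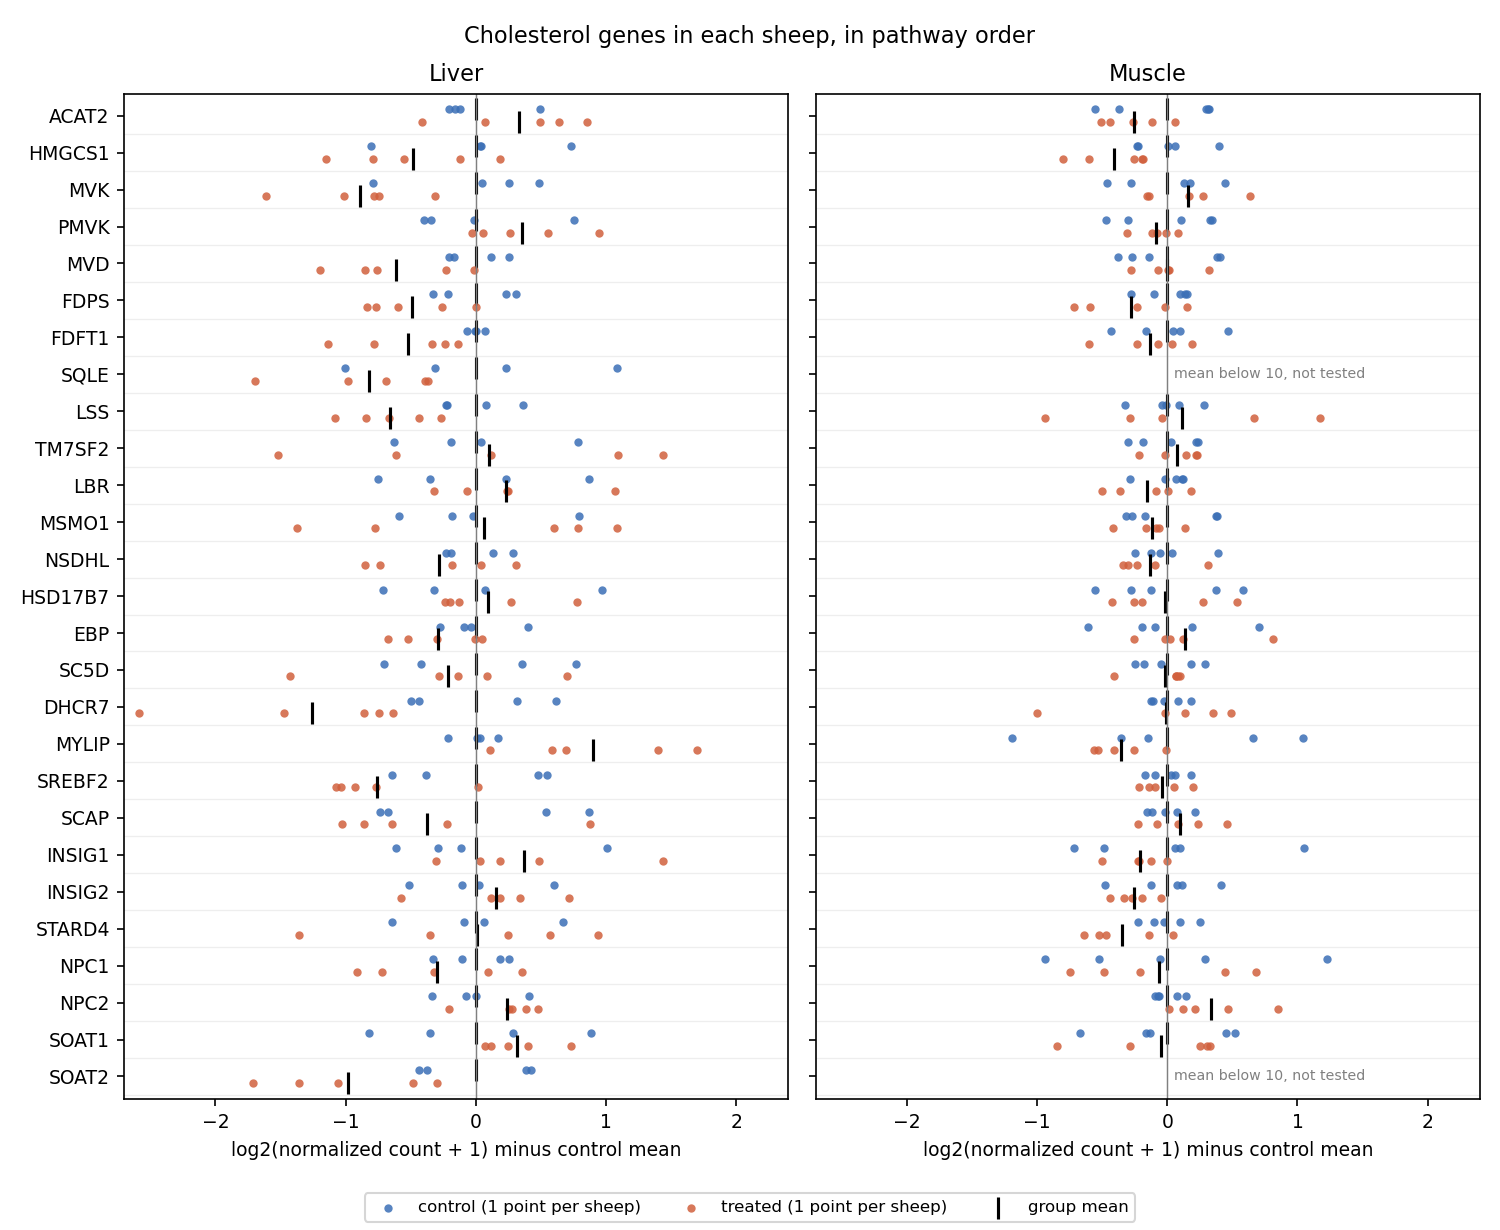
Each gene in each sheep as log2(normalized count + 1) minus the mean of the control sheep of the same tissue, for liver (left) and muscle (right), in pathway order; points are sheep and black bars group means. In liver the treated points of FDFT1, LSS and DHCR7 lie wholly to the left of the control points, while in muscle no gene separates the groups; SQLE and SOAT2 were under the mean of 10 in muscle.

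Among the regulators, SREBF2 had 958, 526, 439 and 1002 in control livers 98, 131, 179 and 201, and 325, 403, 693, 335 and 361 in treated livers 48, 63, 185, 233 and 255. Of the treated livers 4 were below the lowest control, while sheep 185 stood among the controls. The means were 731 ± 290 (SD, n = 4) and 424 ± 154 (SD, n = 5), a log2 difference of -0.76 ± 0.32 (SE) with an unadjusted p of 0.0361 and an adjusted p of 0.999 by limma. SCAP, the escort, had 278, 114, 119 and 351 against 93.2, 164, 352, 122 and 105. The same libraries were high for SCAP as for SREBF2: sheep 98 and 201 of the controls and sheep 185 of the treated. Its log2 difference was -0.37 ± 0.45 (SE). The retention factors INSIG1 and INSIG2, of which INSIG1 is itself switched on by SREBP2, had log2 differences of 0.37 and 0.16, with 95% intervals of -0.48 to 1.22 and -0.49 to 0.81. INSIG1 was highest in treated sheep 233, at 2928, and next in control sheep 179, at 2177.

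MYLIP was the one gene with an unadjusted p under 0.05 and a higher mean. It had 270, 317, 354 and 321 in control livers and 509, 338, 828, 1021 and 472 in treated livers. All treated livers except sheep 63 were above the highest control. The means were 315 ± 34.4 (SD, n = 4) and 634 ± 282 (SD, n = 5), a ratio of 2.01 and a log2 difference of 0.90 ± 0.31 (SE), with an unadjusted p of 0.0138 and an adjusted p of 0.999 by limma.

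The esterifying enzymes stood on opposite sides in liver. SOAT2 had 2164, 2223, 1226 and 1279 in control livers and 1348, 1185, 795, 505 and 646 in treated livers. Treated sheep 48 was within the control range and the other 4 were below it. Its means were 1723 ± 544 (SD, n = 4) and 896 ± 358 (SD, n = 5), a ratio of 0.520 and a log2 difference of -0.98 ± 0.33 (SE), with an unadjusted p of 0.0113 and an adjusted p of 0.941 by limma. SOAT1 had means of 136 and 155 and a log2 difference of 0.31 ± 0.33 (SE). The transport genes STARD4, NPC1 and NPC2 had log2 differences of 0.01, -0.30 and 0.24, each smaller than its standard error or close to it. STARD4 was lowest in treated sheep 63, at 77.1, and highest in treated sheep 233, at 383.

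**Figure D3:**
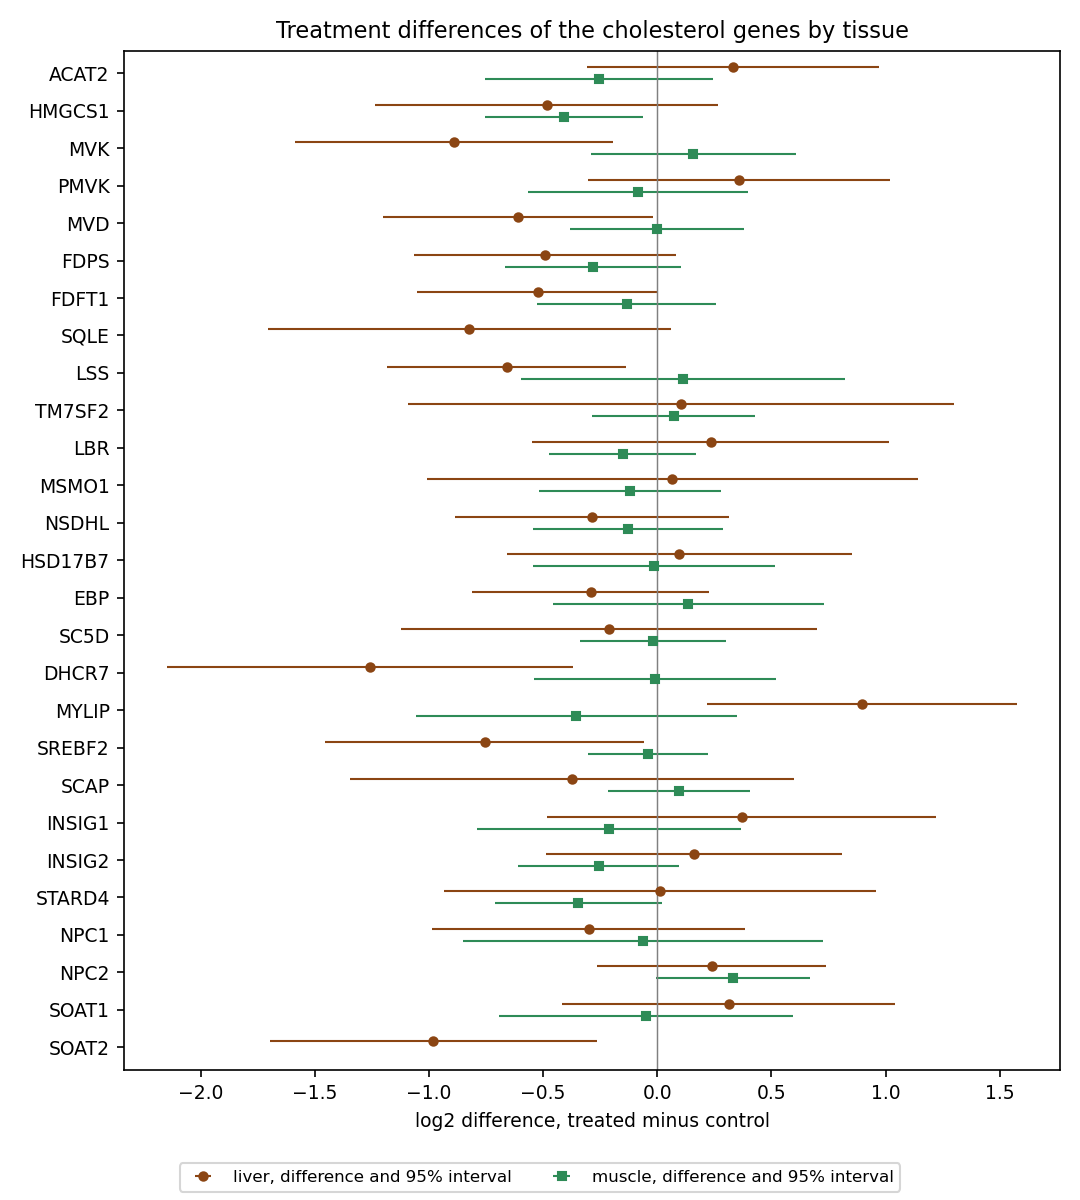
Log2 difference, treated minus control, with its 95% interval from limma, for each of the 27 genes tested in liver (circles) and muscle (squares), in pathway order, with IDI1 not drawn. Among the genes drawn, intervals that exclude 0 before adjustment belong to MVK, MVD, LSS, DHCR7, SREBF2, SOAT2 and MYLIP in liver and to HMGCS1 in muscle, and none passed after adjustment over all genes.

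In muscle no synthesis step separated the groups. SQLE and SOAT2 were under the mean of 10, which left 25 of the 27 genes. Of 12966 genes tested, 1 gene, again LOC114112267, passed at a limma adjusted p under 0.05, which is 0.00771%, and 0 of the 25 cholesterol genes did. By edgeR and DESeq2, 0 of them were called. At an unadjusted limma p under 0.05 there was 1 lower gene of the 25, against 7.00% of all genes, and 0 higher, against 7.37%. Non-overlapping ranges were found for 0 of the 25 in either direction, against 1.53% of all genes lower and 1.76% higher. The median log2 difference of the 25 was -0.06, with 19 below 0, and that of all genes -0.01, with 51.6% below 0. With 1 library left out, the median of the 25 ran from -0.0082 without control sheep 132 to -0.16 without control sheep 179. It was -0.031 without control sheep 201, -0.042, -0.11 and -0.13 without treated sheep 233, 185 and 255, and -0.11 by edgeR and by DESeq2.

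HMGCS1 was the lower gene. It had 716, 904, 584, 687 and 587 in control muscles 98, 131, 132, 179 and 201, and 453, 599, 393, 602 and 575 in treated muscles 48, 63, 185, 233 and 255. The lower end of the controls, sheep 132 and 201, lay within the treated range, while 3 treated muscles were below all controls. The means were 695 ± 131 (SD, n = 5) and 524 ± 95.8 (SD, n = 5), a log2 difference of -0.41 ± 0.16 (SE) with an unadjusted p of 0.0235 and an adjusted p of 0.279 by limma. IDI1, outside the count, had 224, 279, 264, 290 and 258 against 232, 230, 198, 218 and 181. Its log2 difference was -0.31 ± 0.13 (SE), with an unadjusted p of 0.0256 and an adjusted p of 0.285 by limma.

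Of the 7 genes with an unadjusted p under 0.05 in liver, SOAT2 was not tested in muscle and the other 6 passed neither threshold there. DHCR7 had 88.3, 71.4, 82.5, 72.0 and 76.6 in control muscles and 77.1, 99.5, 85.8, 38.3 and 110 in treated muscles, a log2 difference of -0.01 with a 95% interval of -0.54 to 0.52. Sheep 233 was the lowest treated animal for DHCR7 in muscle as in liver. SREBF2 lay between 298 and 381 in control muscle and between 289 and 385 in treated muscle, with a log2 difference of -0.04 and an interval of -0.30 to 0.22. MVK and LSS had log2 differences of 0.16 and 0.11, with intervals of -0.29 to 0.61 and -0.60 to 0.82. MYLIP ranged from 350 to 1653 in control muscle and from 541 to 794 in treated muscle, with a log2 difference of -0.35 ± 0.33 (SE). Among the transport genes, STARD4 had a log2 difference of -0.35 ± 0.17 (SE) and NPC2 of 0.33 ± 0.16 (SE), with unadjusted limma p-values of 0.0617 and 0.0527.

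Whether treatment differed in its effect between tissues was tested as the muscle effect minus the liver effect, over the 11697 genes tested in both. By limma 1 gene, TMEM82, passed, which is 0.00855%, and 0 of the 25 cholesterol genes did. At an unadjusted p under 0.05 there were 4 of the 25, which is to be read against 4.90% of all genes. DHCR7 had a difference of 1.25 ± 0.49 (SE) and MVK of 1.05 ± 0.38 (SE), from treatment differences of -1.26 and -0.89 in liver and of -0.01 and 0.16 in muscle. MYLIP had -1.25 ± 0.48 (SE) and SREBF2 0.72 ± 0.33 (SE). The limma adjusted p-values of these 4 were 0.897 to 0.973, so no liver difference was shown to be particular to liver. SCAP and LBR, which separated the tissues past the threshold in the treated sheep alone, had 0.47 (95% interval -0.51 to 1.45) and -0.39 (-1.19 to 0.42).

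Many of the liver enzymes moved together from sheep to sheep inside the groups, and some did not. After subtracting each group's mean, the 136 pairs of the 17 synthesis enzymes had a median Pearson correlation of 0.38 over 9 livers, and 29.4% of the pairs were above 0.7. Over all pairs of the 13640 genes the median was 0.0025, and 10.6% of the pairs were above 0.7. In muscle the 120 pairs of 16 enzymes had a median of 0.05 over 10 libraries, with 1.67% of pairs above 0.7, against 2.74% of all pairs. These are descriptions: the pairs share libraries, and the liver component described above is shared by many other genes. With any 1 liver left out the median lay between 0.33 and 0.44. Of the 136 liver pairs, 99 had a correlation above 0. MVK, PMVK and MVD had correlations below 0 with HMGCS1 in liver, at -0.10, -0.70 and -0.25. SREBF2 itself had correlations below 0 with most of the 17 enzymes in liver, from -0.90 for SC5D to -0.16 for FDPS. The exceptions were MVK, PMVK, LSS and DHCR7, at 0.49, 0.56, 0.13 and 0.0052. With the liver component, before subtraction of group means, SREBF2 had a correlation of -0.74. MVK, PMVK, LSS and DHCR7 had -0.41, -0.41, -0.025 and 0.15 with it, and the other enzymes ran from -0.083 for MVD to 0.93 for LBR. The part of that component in the correlations with SREBF2 was not tested.

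The animals differed in their average level. Averaged over the 17 enzymes, the log2 level relative to the control mean was -0.09, 0.06, 0.35 and -0.31 in control livers 98, 131, 179 and 201. The treated livers 48, 63, 185, 233 and 255 had -0.10, -0.24, -0.81, -0.54 and 0.13. The groups overlapped, and the lowest animals, 185 and 233, were both treated. Sheep 185 had the lowest value of all livers for 8 of the 17 enzymes and sheep 233 for 6, while control sheep 179 had the highest for 6. Sheep 185 was below the control mean for each synthesis enzyme except PMVK, and sheep 233 for each except ACAT2, PMVK and TM7SF2. On the liver component described above, whose sign is arbitrary, sheep 185 had -69.6, control sheep 98 and 201 had -49.6 and -40.4, and sheep 233 had -9.55. At the opposite end were control sheep 179 and treated sheep 255, at 62.0 and 74.0. Sheep 233 also had the highest liver values of MYLIP, INSIG1, STARD4 and TM7SF2, and sheep 185 had the highest PMVK.

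**Figure D4:**
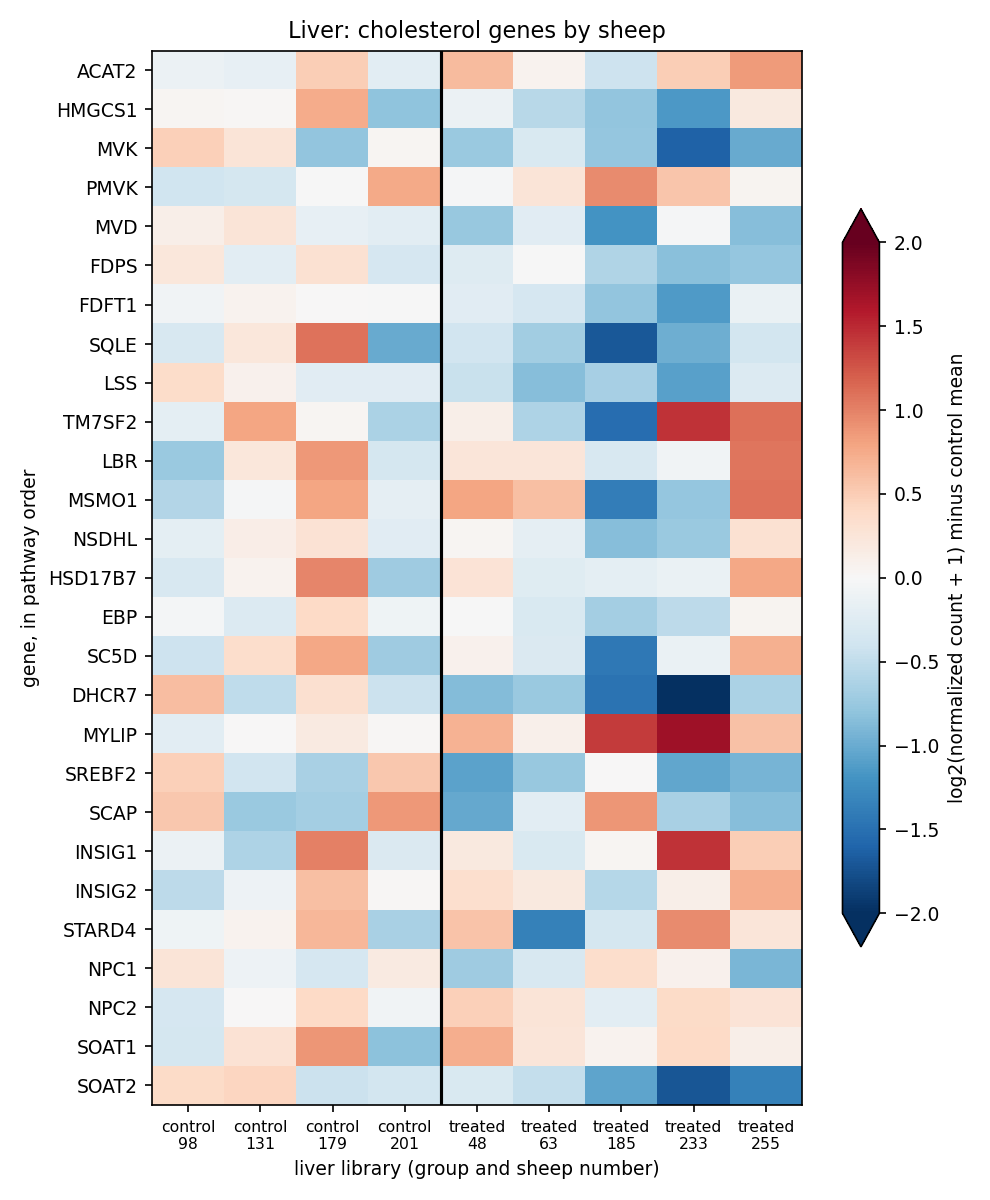
Liver level of each gene in each sheep as log2(normalized count + 1) minus the control mean, blue for lower and red for higher, with the color range ending at -2 and 2; rows are genes in pathway order, and the vertical line separates control from treated sheep. Sheep 185 and 233 are blue for most synthesis enzymes and red for MYLIP, and DHCR7 is blue in each treated liver.

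Other genes of the pathway were taken from a list of 69, of which 59 were in the table. In liver 57 were tested and 0 passed the threshold. At an unadjusted limma p under 0.05 there were 0 lower of the 57, against 2.17% of all genes, and 1 higher, against 1.82%, which is a share near the background. The median log2 difference was -0.06. The higher gene was GRAMD1B, which carries cholesterol from the plasma membrane to the endoplasmic reticulum. Its range was 92.9 to 226 in control and 126 to 425 in treated liver, with means of 155 ± 54.7 (SD, n = 4) and 300 ± 109 (SD, n = 5) and a log2 difference of 0.92 ± 0.36 (SE), and the ranges overlapped. Of the 8 tested genes of efflux and the LXR receptors, which answer to excess sterol, 7 had a lower mean log2 level in treated liver. Their median was -0.27, and 0 had an unadjusted limma p under 0.05. Over all genes 49.6% were below 0, and 45.5% to 58.3% in the other groups of the list with more than 1 tested gene. The genes of SREBP2 processing and sterol-regulated degradation were balanced, at 7 below and 7 above 0.

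In muscle 54 of these genes were tested and 0 passed. At an unadjusted limma p under 0.05 there were 3 lower and 3 higher of the 54, against 7.00% and 7.37% of all genes, so neither share exceeded that of all genes. The genes named here are those the naming rule gave, as values. STARD3, which moves cholesterol at the surface of late endosomes, had 147 to 175 in control and 202 to 257 in treated muscle, without overlap, and a log2 difference of 0.49 ± 0.12 (SE) with an adjusted p of 0.150 by limma. VAPA, the anchor in the endoplasmic reticulum to which such carriers bind, had 5530 to 6171 against 3788 to 5258, also without overlap, with a log2 difference of -0.39 ± 0.12 (SE), and its adjusted p by limma was 0.196. ERLIN2, of a complex that takes part in sterol-dependent degradation, had 435 to 654 and 662 to 790, with a log2 difference of 0.45 ± 0.13 (SE), and its adjusted p by limma was 0.177.

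Markers of some cell types leaned with the groups in these bulk tissues, and those of others were mixed. In liver all 5 tested of 8 adipocyte markers had a lower mean log2 level in treated sheep, against 49.6% of all genes, and 3 were lower at an unadjusted limma p under 0.05, against 2.17%. The summed normalized count of the 8 was 342 to 624 in control and 178 to 403 in treated liver. ADIPOQ and PLIN4 were at 0 in every control liver, and LEP and PLIN4 in every treated liver. All 8 markers of T and NK cells had a higher mean in treated liver, and 2 had an unadjusted limma p under 0.05, against 1.82% of all genes. Their sums were 247 to 415 in control and 332 to 660 in treated sheep, with none at 0 throughout. The 7 hepatocyte markers in the table also had higher means, 0 with an unadjusted limma p under 0.05, with sums of 1108530 to 1983050 and 1352150 to 2293080. Of the tested macrophage markers in liver, 4 were below and 2 above 0. Endothelial markers had 6 and 2, those of stellate cells and fibroblasts 4 and 4, and cholangiocyte markers 4 and 1. Proliferation markers had 1 below and 2 above 0, with sums of 205 to 432 and 359 to 1126. In muscle all 6 tested adipocyte markers had a lower mean in treated sheep, against 51.6% of all genes, with sums of 2468 to 4100 and 1911 to 3151. Of these, 3 were lower at an unadjusted limma p under 0.05, against 7.00% of all genes. All 7 tested markers of T and NK cells had a higher mean in treated muscle, with a median log2 difference of 0.50. Their sums were 149 to 218 and 190 to 327, and 1 had an unadjusted limma p under 0.05, against 7.37% of all genes. All 7 tested markers of the muscle fibre had a lower mean, 0 with an unadjusted limma p under 0.05. Their median was -0.36, with sums of 1083780 to 1281360 and 703547 to 1172820. No adipocyte, T and NK cell or fibre marker was at 0 in all muscles of a group. Macrophage markers in muscle had 2 below and 2 above 0, endothelial markers 6 and 1, and those of stellate cells and fibroblasts 4 and 4. For every sum given here the ranges of the groups overlapped. The part of these cells in the differences of the cholesterol genes was not tested.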

How the data were processed

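RNA of liver (4 control, 5 treated sheep) and muscle (5 and 5) was made into TruSeq libraries, per the labels' protocols. Per the submitters' processing notes, Trimmomatic, STAR and featureCounts 1.6.1 were used. Build, annotation and strand setting are not given in the sources used here, so no coordinates are printed and reads of overlapping genes cannot be told apart. The authors deposited 1 signal value per gene and library, a read count normalized within its tissue. Of its values 100% were whole multiples of 1 read within a tolerance of 0.01 read, and these reads were recovered. Names were matched to an NCBI gene table of the assembly ARS-UI_Ramb_v3.0.

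The test was limma 3.58.1 (R 4.3.3), with its trend option, on log2(value + 1) of genes whose mean in the tissue was 10 or more. Benjamini-Hochberg adjustment ran over all genes, at 0.05. Each tissue was fitted alone, and the difference of effects in 1 fit of all 19 libraries. This log scale understates changes of low genes. Control tissues were compared on recovered reads rescaled by TMM over both tissues. edgeR 4.0.16 and DESeq2 1.42.0 were alternatives, beside other pseudocounts, filters, scalings and weights, and each library left out in turn. The procedure was tested on simulated counts.

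The sheep number pairs the tissues, since both came from 1 animal: deviations from group means correlated at a median of 0.177 within a sheep and -0.0194 between sheep, and for 7 of 9 the best match was their own other tissue. Genes were named by a rule: all of the 27, at most 2 per group of other pathway genes and tissue by the smallest unadjusted p, and defining markers. LOC114112267 and TMEM82, the only genes past the threshold in their comparisons, were named after their values were seen. The genes and lists were chosen with earlier results of these data known, so lists are described by counts and medians without a test. The correlation between enzymes and its alternatives, and the correlation with SREBF2, were added after seeing the data.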

Additional observations from a re-analysis of the deposited data

Results flagged for a closer look

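In 108 groups of 4 or 5 libraries (27 genes and IDI1 where tested, by tissue and treatment), 3 held a library far from the rest by Dixon's criterion on the log2 scale, which is 2.78%, while chance gives about 1 in 20. The normalized count of ACAT2 was 6103 in control liver 179, and 3759 to 3985 in the other controls. That of SREBF2 was 693 in treated liver 185, and 325 to 403 in the other treated livers. That of SC5D was 197 in treated muscle 255, and 274 to 281 in the other treated muscles.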

How the results depend on the processing

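Under every alternative run, 0 of the cholesterol genes passed the threshold for treatment in liver (18 alternatives), muscle (19) or the difference between tissues (13). Summed over the libraries of a group, each cholesterol gene tested had 303 reads or more in liver and 157 or more in muscle. In liver the genes called numbered 0 with a mean of at least 50, 2 with array weights, 9 with all libraries in 1 fit and 32 by DESeq2, and 1 with any library left out. With 1 library left out, cholesterol genes lower in treated liver at an unadjusted p under 0.05 numbered 2 to 7. In muscle the genes called numbered 0 with a pseudocount of 0.25 or a mean of at least 50, 252 by DESeq2, and 0 to 4 with 1 library left out. Lower cholesterol genes in muscle numbered 0 in the fit of all libraries and 1 to 2 with 1 library left out. Higher ones numbered 1 with a mean of at least 50, no filter, TMM scaling, edgeR, DESeq2 or array weights, and 0 to 1 with 1 library left out. For the difference between tissues, 1 gene was called with the sheep as a replicate block (correlation 0.121), 0 with a pseudocount of 4 and 0 to 1 with 1 sheep left out. Cholesterol genes with a lower difference then numbered 0 to 2, and those with a higher one 1 to 4. The block, also run between the control tissues as a paired fit, changed no call of a cholesterol gene. The median difference of control tissues was 2.10, and in the treated sheep 1.56, with 1.81 to 2.11 when 1 control sheep was left out. The median correlation of enzyme pairs in muscle was -0.0077 to 0.058 with 1 library left out, the lowest without treated sheep 233. The causes of these shifts were not tested. The promoter search was not run, because no promoter sequences were at hand.

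Some values changed sign. In liver STARD4 had -0.011 with TMM and -0.019 with array weights, HSD17B7 -0.011 by edgeR and TM7SF2 -0.043 with array weights. In muscle MVD had 0.018 with TMM and 0.074 with array weights, HSD17B7 0.0044 with TMM, SOAT1 0.085 with array weights, and DHCR7 0.010, 0.080, 0.077 and 0.0083 with TMM, edgeR, DESeq2 and array weights. The difference for IDI1 was -0.055 by edgeR. Between tissues MVD, FDPS and MYLIP had -0.12, -0.17 and 0.013 in the treated sheep, which are other animals, against 0.70, 0.20 and -0.96 in the controls. With 1 library left out, the log2 difference in liver ran from -0.23 to 0.51 for TM7SF2, -0.016 to 0.52 for LBR, -0.19 to 0.42 for MSMO1, -0.14 to 0.42 for HSD17B7, -0.45 to 0.093 for SC5D, -0.013 to 0.36 for INSIG2 and -0.22 to 0.35 for STARD4. In muscle it ran from -0.10 to 0.10 for MVD, -0.15 to 0.38 for LSS, -0.0020 to 0.14 for TM7SF2, -0.15 to 0.13 for HSD17B7, -0.033 to 0.31 for EBP, -0.082 to 0.078 for SC5D, -0.13 to 0.24 for DHCR7, -0.10 to 0.0062 for SREBF2, -0.39 to 0.049 for INSIG1, -0.30 to 0.24 for NPC1 and -0.22 to 0.15 for SOAT1. The difference between tissues ran from -0.17 to 0.29 for HMGCS1, -0.25 to 0.41 for IDI1, -0.47 to 0.29 for TM7SF2, -0.61 to 0.058 for MSMO1, -0.00064 to 0.28 for NSDHL, -0.50 to 0.27 for HSD17B7, -0.14 to 0.52 for SC5D, -0.10 to 0.51 for NPC1, -0.058 to 0.18 for NPC2 and -0.83 to 0.023 for SOAT1. FDPS between control tissues ran from -0.016 to 0.34.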
